A study of Mus musculus with 6 samples.

Results

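The 7 genes described here encode the type 17 cytokines and GM-CSF with 2 receptors that sustain them: Il22, Il17a, Il17f, Csf2, Il21, Il23r and Il1r1. They are 7 of 24421 genes measured by SMART-seq, a full-length cDNA method that starts from polyadenylated RNA, in mouse regulatory T cells (Treg). The genes were chosen by name with the measured differences between stimulated and unstimulated libraries already known. Those differences are therefore given as a description and not as a test of these genes, as are the differences between iBP and unstimulated libraries, which share the same unstimulated samples. The rule set no threshold.

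All 6 libraries came from wild-type (WT) Treg of spleen and lymph nodes. The groups were 2 unstimulated libraries, 2 stimulated libraries and 2 libraries stimulated in the presence of iBP, which the study describes as inhibiting H2AK119ub1, the ubiquitin mark that Polycomb repressive complex 1 places on histone H2A. Activation was in vitro; the sources used here do not give the stimulus, its duration, the dose of iBP or the age of the mice. No group received iBP without stimulation. The study's design also names Treg from Kdm2b cKO mice, which were not analysed here. Levels are FPKM, fragment counts divided by transcript length and by the library's mapped total, so they can be compared between genes. Read depth is unknown, and precision therefore comes from the spread between 2 libraries. Whether the 2 libraries of a group were made from different animals is not in the labels. The p-values thus reflect library-to-library spread alone, and this could be technical.

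Interleukin 22 and the 2 IL-17 cytokines are the products of type 17 lymphocytes. They act mostly on epithelial and stromal cells, whereas GM-CSF, encoded by Csf2, acts on myeloid cells. STAT3 drives the fate downstream of IL-6, IL-21 and IL-23, and IL-1 reinforces it. Treg share the need for TGF-β with type 17 cells, and Foxp3 is known to restrain the type 17 programme. Some Treg nevertheless make type 17 cytokines, for example at mucosal surfaces.

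The cell type was checked against its markers. All 8 Treg marker genes were detected in every library, with a summed level of 1118 to 1163 FPKM in unstimulated, 1786 to 1915 in stimulated and 1732 to 1770 in iBP libraries. Transcripts of other cells were present as well: 8 B-cell markers summed to 825 to 854, 843 to 890 and 749 to 784 FPKM in the same order. The 8 myeloid markers summed to 69.2 to 85.9, 84.8 to 88.3 and 69.1 to 102, mostly from Lyz2. Both CD8 markers summed to 8.99 to 9.15, 8.48 to 10.4 and 8.65 to 14.0, and 6 conventional CD4 markers to 177 to 184, 177 to 182 and 191 to 198. Of the other cells known to make IL-22 and IL-17, innate lymphoid and natural killer markers (9 of 9 in the table) summed to 179 to 194, 175 to 181 and 146 to 151 FPKM. Of these 9 genes 6 reached 1 FPKM in 2 or more libraries, among them Id2 (120 to 157), Nkg7 (16.0 to 26.6) and Kit (3.03 to 5.49). Ncr1 did not, and was listed at 0 in the 4 libraries without iBP and at 0.060 and 1.20 FPKM with iBP. The gamma-delta list had 3 of 8 genes in the table and summed to 47.7 to 64.4, 57.5 to 65.3 and 48.9 to 58.0, almost all from Blk, which B cells also express. The T-cell list, with 5 of 6 genes in the table, summed to 815 to 933, 773 to 786 and 710 to 766. Of all these lists, only Treg markers passed the limma test: Foxp3, Il2ra and Gpr83 rose in both stimulated groups against unstimulated, Tnfrsf18 passed after stimulation (limma adjusted p = 0.0120; 0.0645 with iBP) and Ctla4 with iBP (0.0412; 0.114 after stimulation). Of the 8 Treg markers, 6 had positive log2 differences from unstimulated in both comparisons. Nrp1 was lower, at 19.5 and 18.7 FPKM unstimulated, 15.3 and 15.1 stimulated and 17.1 and 16.1 with iBP. Ikzf2 also had negative log2 differences (-0.19 and -0.04), and neither gene passed. Whether the cytokine transcripts came from Treg or from other cells in the preparations was not tested. In such bulk libraries, more cells of a type and more RNA per cell cannot be told apart. The first principal component held 33.5% of the variance. On it, unstimulated replicate 1 scored -37.9, unstimulated replicate 2 scored -9.32 and the remaining 4 libraries scored 10.5 to 13.3. On the second component unstimulated replicate 2 was the most extreme library, at -27.0, with stimulated replicate 2 at 16.2 and unstimulated replicate 1 at 12.1.

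Il22 was the gene with the largest fitted difference of all 10436 genes tested, both in stimulated and in iBP against unstimulated libraries. It encodes interleukin 22, which induces antimicrobial and repair programmes in epithelium. Il22 read 1.85 and 1.99 FPKM without stimulation, 130 and 184 after it and 128 and 82.5 when iBP was added. Both unstimulated libraries were far below the other 4. The group means were 1.92 ± 0.0979, 157 ± 38.5 and 105 ± 32.3 FPKM (SD, n = 2), so the stimulated mean was 81.6 times and the iBP mean 54.8 times the unstimulated one. On the log2(FPKM + 1) scale used for fitting, which understates changes of low genes, the differences from unstimulated were 5.73 ± 0.22 and 5.15 ± 0.22 (SE). Among all 24421 genes of a library, Il22 ranked 8640 and 8663 from the top without stimulation, 482 and 320 with it, and 468 and 785 with iBP. Without unstimulated replicate 1 the stimulated difference of Il22 was 5.70.

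Of the 7 genes, Csf2 followed Il22 on the log2(FPKM + 1) scale, both after stimulation and with iBP. By the ratio of means to unstimulated, Il17a followed Il22 after stimulation and Csf2 did with iBP. Csf2 encodes GM-CSF, a growth and activation factor for macrophages, dendritic cells and granulocytes. It read 8.35 and 3.78 FPKM without stimulation, 36.6 and 45.2 after it and 31.2 and 23.0 with iBP. The lowest of the 4 stimulated libraries was still above the highest unstimulated one. Mean Csf2 was 6.07 ± 3.23, 40.9 ± 6.09 and 27.1 ± 5.79 FPKM (SD, n = 2), 6.74 times the unstimulated mean after stimulation and 4.46 times with iBP. The log2 differences from unstimulated were 2.64 ± 0.29 and 2.05 ± 0.29 (SE), and without unstimulated replicate 1 they were 3.12 and 2.54.

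The neighbouring genes Il17a and Il17f encode the subunits of the IL-17 homodimers and heterodimer, which induce neutrophil-recruiting chemokines. Il17a read 1.36 and 0.643 FPKM unstimulated, 10.6 and 8.98 stimulated and 3.22 and 4.18 with iBP. The 3 groups of Il17a did not overlap, with iBP between the other two. Its means were 1.0 ± 0.51, 9.80 ± 1.16 and 3.70 ± 0.681 FPKM (SD, n = 2), so the stimulated mean was 9.78 times and the iBP mean 3.69 times the unstimulated one. Its log2 differences from unstimulated were 2.45 ± 0.31 after stimulation and 1.25 ± 0.31 with iBP (SE). Without unstimulated replicate 1 these Il17a values were 2.71 and 1.51. With a pseudocount of 0.1 the stimulated difference of Il17a (3.24) was above that of Csf2 (2.83), as it was after rescaling to TPM (2.93 and 2.77).

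Il17f varied more between libraries of a group than Il17a did. It read 3.46 and 2.61 FPKM without stimulation, 7.98 and 24.7 with it, and 4.15 and 11.1 with iBP. All 4 stimulated libraries lay above both unstimulated ones, but the stimulated and iBP groups overlapped. Mean Il17f was 3.03 ± 0.597, 16.3 ± 11.8 and 7.61 ± 4.90 FPKM (SD, n = 2), with log2 differences from unstimulated of 1.92 ± 0.47 and 0.97 ± 0.47 (SE). Without stimulated replicate 2 the first of these was 1.16, while the second was 0.36 without iBP replicate 2 and 1.59 without iBP replicate 1. The ratio of Il17f to Il17a FPKM was 2.54 and 4.06 in unstimulated, 0.751 and 2.75 in stimulated and 1.29 and 2.65 in iBP libraries. In stimulated replicate 1 alone of the 6 libraries, Il17a was above Il17f.

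**Figure D1:**
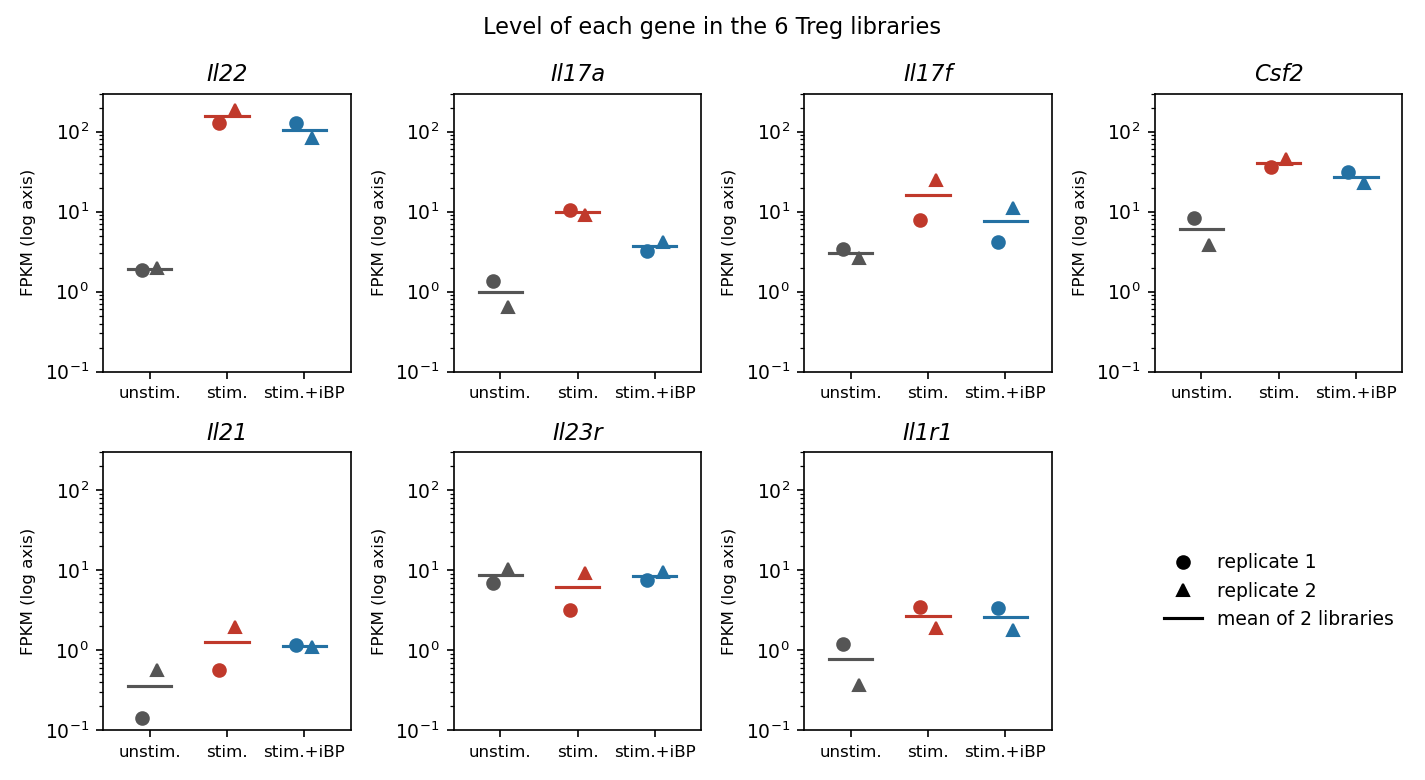
FPKM (log axis) of each of the 7 genes in the 6 libraries, with circles for replicate 1, triangles for replicate 2 and lines for the mean of 2 libraries. Il22 goes from 1.85 and 1.99 FPKM to between 82.5 and 184, while the groups of Il23r overlap.

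Il21 was the lowest of the cytokine genes. Interleukin 21 is an autocrine factor of type 17 cells and the helper cytokine of germinal centres. Il21 read 0.143 and 0.562 FPKM unstimulated, 0.571 and 1.98 stimulated and 1.15 and 1.08 with iBP. Stimulated replicate 1 was barely above unstimulated replicate 2, so the groups were separate by a very small margin. Its log2 differences from unstimulated were 0.69 ± 0.41 and 0.66 ± 0.41 (SE). The first was 0.23 without stimulated replicate 2 and 1.16 without stimulated replicate 1, and the second 0.44 without unstimulated replicate 1. Il21 reached the filter of 1 FPKM in 2 libraries through stimulated and iBP libraries alone. Its inclusion among the tested genes thus depended on the groups where it was high. Il17a (0.643 FPKM) and Il1r1 (0.363) were below 1 FPKM in unstimulated replicate 2, so they too passed only with libraries of those groups.

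Of the receptor genes, Il1r1 was higher in both stimulated groups and Il23r was not. Il1r1 encodes the signalling receptor of IL-1, and it read 1.21 and 0.363 FPKM unstimulated, 3.49 and 1.88 stimulated and 3.38 and 1.79 with iBP. Stimulated and iBP values of Il1r1 were nearly the same, and both groups were above unstimulated, with log2 differences of 1.05 ± 0.40 and 1.01 ± 0.40 (SE). Without unstimulated replicate 2 the Il1r1 values were 0.70 and 0.67. Il23r encodes the chain that gives the IL-23 receptor its specificity. It read 6.86 and 10.3 FPKM unstimulated, 3.15 and 9.28 stimulated and 7.56 and 9.42 with iBP. Its groups overlapped, and stimulated replicate 1 was the low library. The Il23r difference between stimulated and unstimulated was -0.53 ± 0.38 on the log2 scale (SE), and it ran from -1.18 without stimulated replicate 2 to 0.12 without stimulated replicate 1.

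The number of these genes among the calls of the fit over all genes (limma, adjusted p under 0.05) follows from how they were chosen and is given as a description. In stimulated against unstimulated libraries it was 3 of 7 higher (Il22, Csf2 and Il17a) and 0 lower. Of all 10436 tested genes 0.968% were called higher and 1.29% in either direction. With iBP against unstimulated, it was 2 of 7 higher (Il22 and Csf2), against 1.03% of all genes higher and 1.75% in either direction. In 6 of the 7 genes, all but Il23r, both stimulated libraries were above both unstimulated ones, which held for 18.7% of all tested genes; with iBP it was the same 6 genes, against 18.1%. Nothing further is read from these counts. The median log2 difference of the 7 genes was 1.92 after stimulation and 1.01 with iBP, beside -0.0024 and -0.033 over all tested genes.

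Mean levels ranked the genes differently in the 3 groups. Without stimulation the order by mean FPKM was Il23r, Csf2, Il17f, Il22, Il17a, Il1r1 and Il21. Of the neighbours in that order, Il23r and Csf2 overlapped between libraries, as did Il17a and Il1r1, and Il1r1 and Il21. After stimulation the order was Il22, Csf2, Il17f, Il17a, Il23r, Il1r1 and Il21, and from Il17f downwards every neighbouring pair overlapped. With iBP it was Il22, Csf2, Il23r, Il17f, Il17a, Il1r1 and Il21, where Il23r and Il17f, Il17f and Il17a, and Il17a and Il1r1 overlapped. Il22 made up 7.97% and 9.81% of the summed FPKM of the 7 genes in unstimulated, 67.5% and 66.7% in stimulated and 71.7% and 62.0% in iBP libraries. Its share was thus alike in both stimulated groups while the sum itself was 192 and 276 FPKM after stimulation and 179 and 133 when iBP was added.

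The sequences printed here are windows of 300 bases around the RefSeq start sites of the 4 cytokine genes with the largest differences, chosen because all 4 were higher in both stimulated groups. Each runs from 250 bases before to 50 after the start, 5′ to 3′ on the strand of the gene, on GRCm38.p6. They lie at chr10:118204714-118205013 (Il22, plus strand), chr1:20730655-20730954 (Il17a, plus strand), chr1:20784221-20784520 (Il17f, minus strand) and chr11:54249850-54250149 (Csf2, minus strand). The RefSeq start of Il22 is 22 bases downstream of the first base of the GENCODE gene. That of Csf2 is 232 bases upstream of the GENCODE first base and that of Il17f is 6347 bases downstream. The Csf2 window therefore ends before the GENCODE gene begins, and the bases directly upstream of that gene are not in it. Capitals mark every match, on either strand, to 5 short motifs, named after the factors known to bind them or the TATA box and spelled out in the next paragraph.
Il22: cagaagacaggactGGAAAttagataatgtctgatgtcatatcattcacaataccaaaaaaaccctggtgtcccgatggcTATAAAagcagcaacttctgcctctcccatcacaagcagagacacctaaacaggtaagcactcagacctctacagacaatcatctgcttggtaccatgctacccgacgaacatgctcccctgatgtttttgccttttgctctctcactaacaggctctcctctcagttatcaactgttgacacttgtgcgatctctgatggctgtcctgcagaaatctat
Il17a: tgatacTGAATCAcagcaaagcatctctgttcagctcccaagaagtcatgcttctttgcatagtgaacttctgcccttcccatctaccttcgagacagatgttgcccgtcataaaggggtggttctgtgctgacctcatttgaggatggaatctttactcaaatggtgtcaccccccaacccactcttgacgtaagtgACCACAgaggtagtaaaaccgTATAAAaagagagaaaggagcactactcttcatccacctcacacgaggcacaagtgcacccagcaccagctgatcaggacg
Il17f: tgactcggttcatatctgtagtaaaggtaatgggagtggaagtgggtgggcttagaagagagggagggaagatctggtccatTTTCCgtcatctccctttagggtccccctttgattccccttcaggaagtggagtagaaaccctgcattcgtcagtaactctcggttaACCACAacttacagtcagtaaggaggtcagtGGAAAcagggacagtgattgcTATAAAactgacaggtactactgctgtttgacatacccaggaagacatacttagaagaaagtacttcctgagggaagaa
Csf2: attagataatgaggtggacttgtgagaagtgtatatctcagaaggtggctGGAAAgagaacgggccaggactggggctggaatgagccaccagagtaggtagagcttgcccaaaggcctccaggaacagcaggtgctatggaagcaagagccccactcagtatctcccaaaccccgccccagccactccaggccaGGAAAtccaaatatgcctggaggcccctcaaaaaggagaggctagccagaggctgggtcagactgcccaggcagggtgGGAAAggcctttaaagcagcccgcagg

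The TATA box, searched as TATAAA, was 31 to 26 bases before the start of Il17a and 29 to 24 before that of Il17f, and 13.6% of all 32851 windows of this length held it. In the Il22 window the same letters lay 170 to 165 bases before the RefSeq start. The Csf2 window held the NFAT motif, searched as GGAAA, 3 times; it was found in 61.3% of all windows and in 6 of 8 windows of the 7 genes (Il1r1 has 2). The AP-1 motif, searched as TGANTCA, was in the Il17a window alone, 244 to 238 bases before the start, and in 7.81% of all windows. The STAT motif, searched as TTCNNNGAA, was in 0 of the 8 windows and in 8.3% of all. The RUNX motif, searched as TGTGGT, was in the windows of both IL-17 genes and in 16.8% of all. A match is a run of letters and not evidence of binding, and windows without one say nothing of more distant elements.

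Il22 has a near copy, Iltifb, 79.6 kb away on the opposite strand. Il22 lies at chr10:118204942-118210047 and Iltifb at chr10:118289629-118295038 in GENCODE M21 on GRCm38. Their longest coding transcripts were identical at 1081 of 1110 aligned bases (97.4%), and 20.4% of the 100-base windows of the Il22 transcript occurred unchanged in that of Iltifb. A read that lies wholly inside such a window cannot be assigned to 1 gene by its own sequence. The sources used here do not say how the authors treated such reads. Iltifb read 0.164 and 0.167 FPKM unstimulated, 1.09 and 1.93 stimulated and 1.46 and 0.367 with iBP. That is 8.37% to 8.86% of the Il22 level without stimulation and 0.445% to 1.14% in the other 4 libraries. Il17a and Il17f shared 0 such windows.

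Nearest annotated protein-coding neighbours of these genes were read from the same annotation. Il17a (chr1:20730905-20734496) and Il17f (chr1:20777146-20790617) are 42.6 kb apart on opposite strands. Beyond Il17a lies Pkhd1, listed at 0 in 5 of 6 libraries, and beyond Il17f lies the replication gene Mcm3, which read 26.3 to 51.6 FPKM over the 6 libraries and differed by 0.02 ± 0.20 (log2, SE) between stimulated and unstimulated. Csf2 (chr11:54247271-54249667) lies 15.6 kb from Il3, another myeloid growth factor gene, which was listed at 0 in all 6 libraries. Il21 (chr3:37222759-37232636) lies 96.8 kb from Il2, the T-cell growth factor gene. Il2 read 1.07 and 0 FPKM unstimulated, 2.11 and 4.44 stimulated and 1.16 and 3.10 with iBP. Il23r (chr6:67422932-67491855) lies 46.7 kb from Il12rb2, an IL-12 receptor gene at 0.609 to 2.91 FPKM, and Il1r1 (chr1:40225080-40317257) lies 99.8 kb from Il1r2, a decoy receptor gene for IL-1 at 36.8 to 76.5 FPKM. Between Mdm1, the nearest neighbour of Il22 in the table, and Il22 lie 35.9 kb. Mdm1 read 1.02 and 3.94 FPKM unstimulated, 5.49 and 6.85 stimulated and 2.82 and 3.72 with iBP. Antisense genes overlap Csf2 and Il21 and another transcript overlaps Il1r1 in GENCODE, and the sources used here do not say whether the counting used strand, so their reads may be mixed.

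The comparison of iBP with stimulated libraries asks how these genes differ when iBP is present during stimulation. It shares the stimulated libraries with the contrast by which the genes were known, so its values are not independent of that choice. The means of Il22, Csf2, Il17f and Il17a were lower with iBP, at 67.2%, 66.2%, 46.6% and 37.7% of the stimulated mean, and Il21 and Il1r1 were at 87.6% and 96.5%. Il23r was at 137%. None of these differences passed the limma test over all genes, in which 0 of 7 were called (0.00958% of all genes, 1 gene), with 2 of 7 at an unadjusted p under 0.05 (Il17a and Il22), as were 498 of all 10436 genes.

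The difference of Il17a was the largest of the 7, at -1.20 ± 0.31 on the log2 scale (SE; 95% interval -1.88 to -0.53; limma adjusted p = 0.959). It ranked 28 from the most negative of the 10436 tested genes. For Il17f it was -0.95 ± 0.47 (interval -1.99 to 0.09; limma adjusted p = 0.998). Il22 differed by -0.58 ± 0.22 (interval -1.07 to -0.10; limma adjusted p = 0.998) and Csf2 by -0.59 ± 0.29 (interval -1.21 to 0.04; limma adjusted p = 0.998). These intervals are not adjusted for the number of genes. The intervals of Il21 (-0.94 to 0.88), Il1r1 (-0.91 to 0.84) and Il23r (-0.29 to 1.36) took in changes in either direction, with limma adjusted p of 1.0, 1.0 and 0.998.

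Both iBP libraries were below both stimulated ones in 3 of the 7 genes, Il17a, Csf2 and Il22, against 21.0% of all tested genes. For Il22 the margin was small, since iBP replicate 1 read 128 and stimulated replicate 1 read 130 FPKM. Leaving out each library in turn, the difference stayed between -1.35 and -1.06 for Il17a, and between -0.80 and -0.37 for Csf2, where the value nearest 0 came without iBP replicate 2. For Il22 it was -0.27 without iBP replicate 2, -0.33 without stimulated replicate 2 and -0.90 without iBP replicate 1. That of Il17f was -1.71 without stimulated replicate 1, -1.56 without iBP replicate 2, -0.33 without iBP replicate 1 and -0.19 without stimulated replicate 2. The sign changed for Il23r, to -0.12 without stimulated replicate 1, for Il21, to 0.43 without stimulated replicate 2, and for Il1r1, to 0.28 without stimulated replicate 1 and 0.29 without iBP replicate 2. The median over the 7 genes was -0.58, beside -0.035 over all tested genes. Of all tested genes, 13.6% were higher with iBP than in stimulated libraries without overlap, beside the 21.0% that were lower. Marker sums of 3 other lists were also lower with iBP than in stimulated libraries without overlap. The innate lymphoid sum was 146 to 151 FPKM against 175 to 181, mostly from Id2, which many lymphocytes express. Of the 6 tested genes in that list, 3 were lower without overlap (Id2, Nkg7 and Tyrobp) and 2 were higher. The higher ones were Kit (3.64 and 4.01 against 3.47 and 3.32 FPKM) and Zbtb16 (1.49 and 1.06 against 0.399 and 0.594). The B-cell sum was 749 to 784 against 843 to 890, and the T-cell sum 710 to 766 against 773 to 786. In the B-cell list 2 of 8 genes were lower without overlap and 1 was higher, and 4 of 8 log2 differences were positive. Its largest change was in Cd79b, at 222 and 244 FPKM with iBP against 336 and 340. Lat alone of the 5 tested T-cell genes was lower without overlap, at 270 and 289 against 302 and 326 FPKM. The conventional CD4 sum was higher with iBP, at 191 to 198 against 177 to 182, but its genes went both ways. Of its 5 tested genes, 2 were higher without overlap: Cd4 (107 and 91.3 against 84.3 and 83.1 FPKM) and Ifng (21.2 and 13.6 against 13.1 and 3.08). Cxcr5 was lower without overlap (52.2 and 61.9 against 67.8 and 73.8 FPKM). The part of these cells in the cytokine values was not tested.

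**Figure D2:**
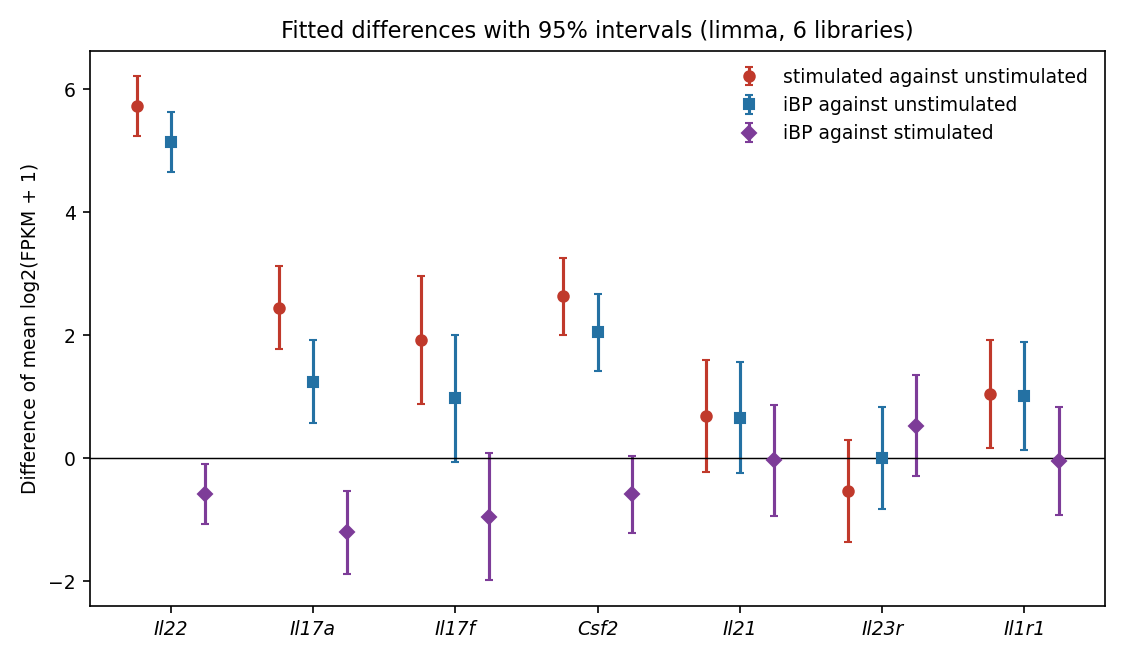
Fitted difference of mean log2(FPKM + 1) for each of the 7 genes in 3 comparisons; points are limma estimates and bars 95% intervals not adjusted for the number of genes. Il22 stands at 5.73 and 5.15 against unstimulated, and in iBP against stimulated the intervals of Il22 and Il17a lie below 0 although neither passed after adjustment.

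**Figure D3:**
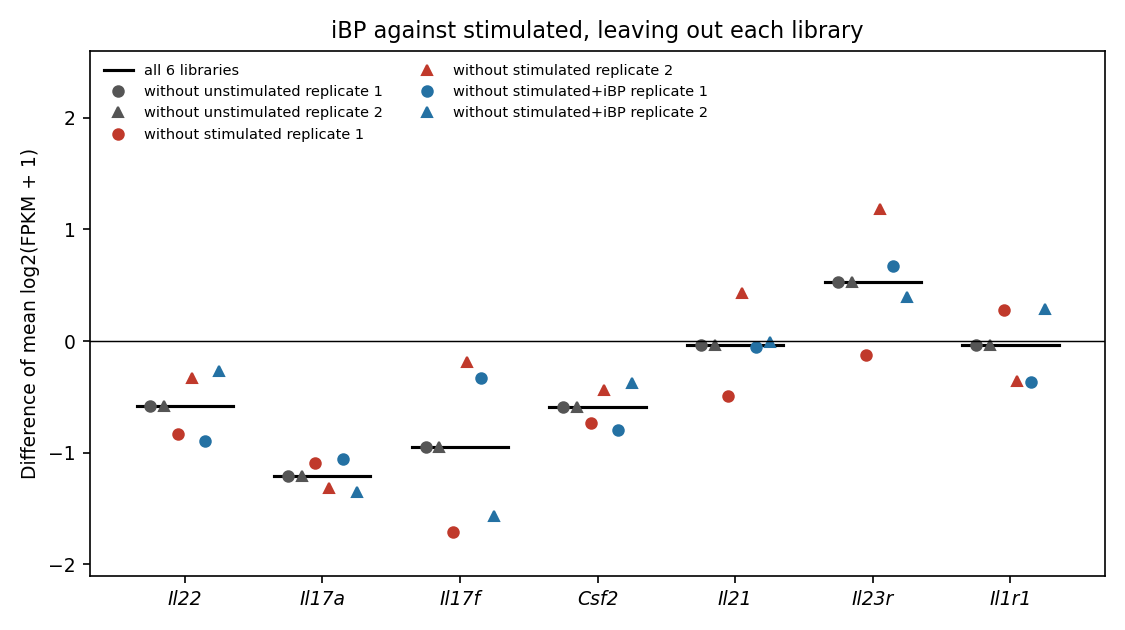
Difference of mean log2(FPKM + 1) between iBP and stimulated libraries with all 6 libraries (line) and with each library left out (symbols). Il17a stays between -1.35 and -1.06, while Il17f spans -1.71 to -0.19 and Il21, Il23r and Il1r1 cross 0.

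Beyond these 7 genes, 72 other genes of the type 17 pathway in 7 lists were examined, of which 56 passed the filter and 16 did not. The lists too were chosen with earlier results of these data known, so their counts are given as a description. In stimulated against unstimulated libraries limma called 6 of the 56 higher and 0 lower, 10.7% beside 1.29% of all genes, and the median log2 difference was 0.013 beside -0.0024. With iBP against unstimulated 7 were higher and 0 lower (12.5% beside 1.75%; median -0.052 beside -0.033). With iBP against stimulated 0 were called, 3 of 56 had an unadjusted p under 0.05 (498 of all 10436 tested genes did), and the median was -0.042 beside -0.035.

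Among transcription factors that promote the type 17 state, 3 of 12 rose and 0 fell after stimulation. They were Nfkbiz, which encodes the atypical I-kappaB protein IκBζ (41.3 and 57.9 FPKM against 117 and 110; log2 1.20 ± 0.16, limma adjusted p = 0.0025), Hif1a, the hypoxia and glycolysis regulator (161 and 162 against 301 and 303; 0.90 ± 0.11, limma adjusted p = 0.00128), and Irf4 (61.3 and 70.6 against 113 and 119; 0.81 ± 0.13, limma adjusted p = 0.00918). The Irf4 call ended without unstimulated replicate 1 (limma adjusted p = 0.0554) or stimulated replicate 2 (0.0867). With iBP the same 3 genes were higher than unstimulated. Nfkbiz was at 128 and 121 FPKM (limma adjusted p = 0.00136), Hif1a at 304 and 327 (0.000832) and Irf4 at 110 and 102 (0.0216). That Irf4 call was lost when any 1 of unstimulated replicate 1 (limma adjusted p = 0.111), iBP replicate 1 (0.229) and iBP replicate 2 (0.122) was left out. The most abundant factors that did not pass after stimulation were Junb at 663 to 911, Stat3 at 264 to 347 and Batf at 19.8 to 25.8 FPKM over the 6 libraries.

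Of 8 tested genes that restrain the type 17 state, 2 rose after stimulation and 0 fell. Foxp3, the factor that defines Treg, read 35.5 and 47.1 FPKM unstimulated, 121 and 101 stimulated and 122 and 124 with iBP (log2 1.41 ± 0.16 after stimulation, limma adjusted p = 0.000923, and 1.57 ± 0.16 with iBP, 0.000482). Socs3, a feedback inhibitor of STAT3, read 21.8 and 46.0, then 79.3 and 73.9, then 81.6 and 81.6 FPKM (1.25 ± 0.25, limma adjusted p = 0.0375, and 1.33 ± 0.25, 0.0221). The Socs3 call after stimulation ended without any 1 of the libraries except unstimulated replicate 2, with limma adjusted p from 0.0502 to 0.198, and with iBP it ended without either iBP library (0.124 and 0.118). Ets1 read 349 to 474, Stat5a 114 to 172 and Stat5b 55.1 to 66.2 FPKM over the 6 libraries and did not pass.

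Receptors of these cytokines did not pass in any comparison (0 of 7 tested, with 6 of 13 below the filter). Il22ra1, the signalling chain for IL-22, was listed at 0 in all 6 libraries, and the most abundant were Il2rg at 489 to 618, Il21r at 97.4 to 156 and Il17ra at 54.2 to 80.6 FPKM. Among 11 partner chains and inducing receptors 0 passed, the most abundant being Il1r2 at 36.8 to 76.5, Tgfbr2 at 38.8 to 58.8 and Il6st at 36.2 to 49.3 FPKM. Il12rb1 encodes the chain that pairs with Il23r in the IL-23 receptor and was named after its values were seen. It read 1.16 and 1.32 FPKM unstimulated, 2.01 and 2.36 stimulated and 0.561 and 0.625 with iBP. These groups did not overlap, and in iBP against stimulated the difference was -0.997 ± 0.341 (log2, SE; limma adjusted p = 0.998).

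Of 5 tested inducing ligands 0 passed. Il12b encodes the p40 subunit shared by IL-12 and IL-23, a product of myeloid cells, and read 13.7 and 15.3 FPKM unstimulated, 22.4 and 10.99 stimulated and 3.18 and 8.06 with iBP. Both iBP libraries of Il12b were below the other 4, and the difference from stimulated was -1.44 ± 0.37 (log2, SE; limma adjusted p = 0.959). Il6 read 1.74 to 4.87 and Tgfb1 0.996 to 2.52 FPKM over the 6 libraries. Of 7 known regulators of Csf2, 0 passed, and Rel at 141 to 155, Bhlhe40 at 90.1 to 114 and Nfkb1 at 74.0 to 87.5 FPKM were the most abundant.

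Among 6 tested genes of other effector molecules, 1 rose after stimulation and 2 with iBP against unstimulated. Lta, which encodes lymphotoxin alpha, read 22.0 and 24.2 FPKM unstimulated, 72.9 and 83.9 stimulated and 69.4 and 62.3 with iBP (log2 1.72 ± 0.15, limma adjusted p = 0.000125, and 1.47 ± 0.15, 0.000482). Tnf read 20.9 and 27.6, then 37.6 and 40.9, then 43.4 and 42.4 FPKM. It passed with iBP against unstimulated (0.81 ± 0.17, limma adjusted p = 0.0333), and lost the call when unstimulated replicate 1 (0.169), iBP replicate 1 (0.235) or iBP replicate 2 (0.201) was left out. Il10 at 49.9 to 65.2 and Ccr6, the receptor for CCL20 carried by type 17 cells, at 24.9 to 43.6 FPKM did not pass. Of the other members of the IL-17 family, Il17b, Il17d and Il25 were listed at 0 in all 6 libraries. Il17c, named after its values were seen, read 2.69 FPKM in unstimulated replicate 1 and 0 to 0.211 in the other 5 libraries, and did not reach the filter.

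**Figure D4:**
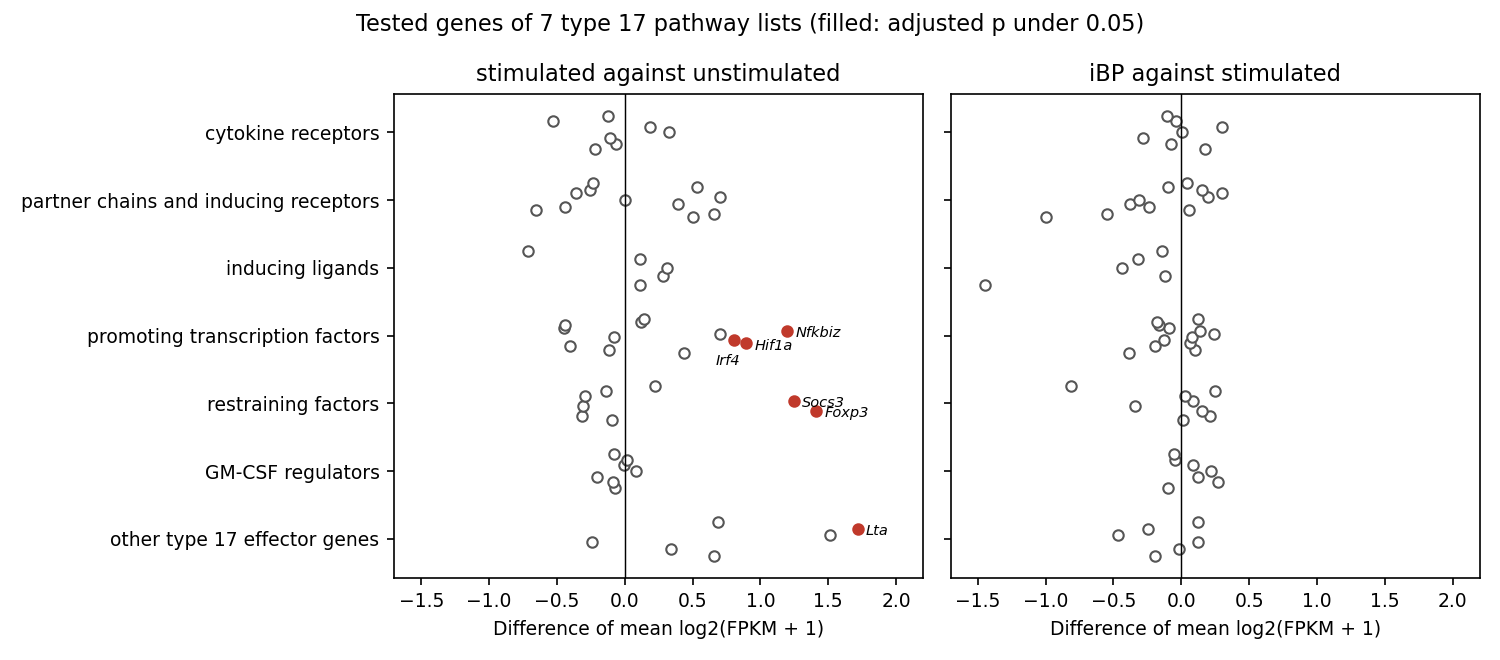
Difference of mean log2(FPKM + 1) for the 56 tested genes of the 7 pathway lists, 1 circle a gene, filled where the adjusted p was under 0.05. After stimulation 6 genes are filled and named, and in iBP against stimulated none is.

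The tested genes nearest in pattern were found by the root mean square difference between log2(FPKM + 1) profiles over the 6 libraries, each centred on its own mean. For Il22 they were Socs1 (1.32), Mir704 (1.44) and Csf2 (1.49), all far from it because no other gene had a difference of its size. Nearest to Csf2 were Gm5861 (0.30), Gpsm2 (0.39) and Gm6455 (0.39), and to Il17a Mir8100 (0.34), Speer1 (0.40) and Gm6460 (0.41). For Il17f they were Il2 (0.37), Ctrb1 (0.38) and Fam219a (0.40). Ctrb1 encodes a pancreatic protease precursor and read 7.05 and 8.48 FPKM unstimulated, 12.0 and 37.0 stimulated and 13.5 and 19.2 with iBP. It shared with Il17f the high value in stimulated replicate 2, and its part in the Il17f values was not tested. Nearest to Il1r1 were Ccr4 (0.21), Dap (0.23) and Parp9 (0.23), to Il23r Zfp654 (0.15), Sipa1l2 (0.16) and Rapgef2 (0.16), and to Il21 6230400D17Rik (0.11), Panx1 (0.12) and Abhd17b (0.13). Sipa1l2, like Il23r, was lowest in stimulated replicate 1, at 0.873 FPKM against 2.14 to 3.06 elsewhere.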

How the data were processed

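The authors deposited FPKM values in a single table, 1 column a library, with 24421 genes. The submitters' processing notes name HISAT2 2.2.1, StringTie 2.1.1 and mm10; annotation, filters and treatment of multi-mapped reads are not stated there, and the sources used here do not give them. Per the labels, RNA from cells lysed in TRIzol was reverse transcribed with an oligo-dT primer and amplified by PCR, without molecular identifiers being mentioned, so PCR copies count as fragments.

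Values were tested as log2(FPKM + 1) in genes that reached 1 FPKM in 2 or more libraries (10436 genes; all 7 described genes passed). The 6 libraries entered 1 linear model with a mean per group, in limma 3.58.1 (R 4.3.3); variances were moderated along a trend with mean level, on 3 residual and 8.52 prior degrees of freedom. All p-values are two-sided, adjusted by Benjamini-Hochberg across the tested genes, and called under 0.05. Errors are SE of the fit or SD of 2 libraries. The script was tested on simulated data.

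The genes, pathway lists, comparisons and naming rule were chosen with earlier results of these data known. The rule names every pathway gene that passed, up to 5 a list, up to 3 of the most abundant that did not pass, the 3 nearest genes in pattern and the protein-coding neighbours; 1 pathway gene is not reported here. Coordinates are from GENCODE M21 (GRCm38, the assembly of mm10) and start-site windows from RefSeq on GRCm38.p6, matched by symbol for 7 of 7 genes. Transcripts were aligned with Biopython 1.88, and figures drawn with matplotlib 3.10.9 in Python 3.11.15. Alternatives were another pseudocount, filter, scaling and variance model, fewer groups in the fit, a replicate block and leaving out each library.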

Additional observations from a re-analysis of the deposited data

How the results depend on the processing

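In 16 alternatives (10 settings and 6 omitted libraries), 0 of the 7 genes were called in iBP against stimulated, and the signs of Il22, Il17a, Il17f and Csf2 held there in all 16. Il21 and Il1r1 were tested in 15 of these, as neither reached the filter with a minimum FPKM of 5. Without single libraries, the iBP against stimulated difference spanned -0.49 to 0.43 for Il21, -0.12 to 1.19 for Il23r and -0.36 to 0.29 for Il1r1. Il21 reversed to 0.042 with a pseudocount of 0.1, 0.032 after rescaling to TPM and 0.43 without stimulated replicate 2, Il23r to -0.12 and Il1r1 to 0.28 without stimulated replicate 1, and Il1r1 to 0.29 without iBP replicate 2. Against unstimulated, the described genes called after stimulation numbered 3 to 4 without single libraries and 1 without the filter; with iBP they numbered 1 without the filter and 1 without the variance trend. Genes at 0 in every library stayed out of the fit without the filter. All genes called after stimulation (135) numbered 12 without the filter, 12 without the variance trend, 77 with only 2 groups in the fit, and 54 to 141 without single libraries. For iBP against stimulated (1) they were 0 without the filter, 0 without the variance trend and 0 to 5 without single libraries. For iBP against unstimulated (183) they were 11, 9 and 53 to 190 in the same order. Pathway genes called after stimulation (6) numbered 1 without the filter and 1 without the trend; with iBP against unstimulated (7) they were 0, 0 and 4 to 8 without single libraries. With the replicate block 79 genes were called after stimulation and 109 with iBP against unstimulated, and the counts of described genes stayed at 3 and 2; the labels do not say that numbers mark a shared animal or day, and deviations of same-numbered libraries correlated at -0.046, -0.018 and -0.012 across genes. Where a library is omitted its group has 1 library, assumed to vary like the others. With 2 libraries a group and unknown depth, differences of low genes such as Il21 and Il1r1 were poorly resolved.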
